A study of Caenorhabditis elegans with 3 samples.

Results

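The 10 genes described here encode core components of the TGF-beta pathways of the nematode worm Caenorhabditis elegans. They were chosen by name, as probes whose single gene symbol was 1 of 10 listed members, and all 10 were among the 15092 genes with a value on every array. The members were reported by 11 probes, with 2 probes for sma-2 and 1 for each other gene. Of the 10, 6 belong to the body size branch (dbl-1, sma-2, sma-3, sma-4, sma-6 and sma-9) and 4 carry dauer names (daf-1, daf-4, daf-7 and daf-8).

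A secreted ligand of this family binds a complex of type I and type II serine/threonine kinase receptors, and the activated type I receptor phosphorylates receptor Smads, which act with a co-Smad in the nucleus. In C. elegans the neuronal ligand DBL-1 signals through SMA-6, DAF-4 and the Smads SMA-2, SMA-3 and SMA-4 to increase body size, largely in the epidermis. The ligand DAF-7, made in sensory neurons of the head, signals through DAF-1, DAF-4 and the Smads DAF-8 and DAF-14 to prevent entry into the dauer larva, an arrested and stress-resistant stage. The type II receptor DAF-4 serves both branches.

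RNA of adult hermaphrodites, coded TP09 by the submitters, was hybridised on 3 two-channel arrays. Channel 2 of each array carried RNA of a different adult prep, and channel 1 carried wild-type mixed reference RNA. The labels used here give neither the genotype and age of the adults nor the stages in the reference, and whether the preps are separate cultures is not stated. The spread behind each p-value is thus that between preps, each on its own array, and may be technical. The array titles end in different date-like codes, so prep and array cannot be told apart. Each value is a log2 ratio after centring of the array on its median probe, and adult over reference was taken as the likely direction. With the opposite direction every sign below would turn.

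Markers of the labelled material were examined first. Of 19 germline and oocyte genes, 19 were higher in adults (limma, adjusted p under 0.05), against 20.9% of all genes tested. Their median log2 ratio was 1.73. The germ granule helicases encoded by glh-1 and glh-2 are alike in sequence, so that the probes can share signal, and these genes stood at 2.50 ± 0.15 and 2.40 ± 0.05 (SD, n = 3). Of 6 adult cuticle genes, 4 were higher (66.7%, against 20.9% of all genes tested) and 2 did not pass. The collagen genes col-19 and col-119 stood at 2.12 ± 0.15 and 1.95 ± 0.10.

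Of the 10 TGF-beta genes, 8 were lower in adults than in the mixed reference and 2 did not pass. All 6 body size genes were lower, with a median log2 ratio of -0.78, a 1.71-fold lower level. Of the 4 dauer genes, daf-4 and daf-7 were lower, while daf-1 and daf-8 did not pass. Over all genes tested, 44.4% passed the test, 23.5% as lower and 20.9% as higher in adults. None of the 10 was higher (count 0 by limma, and 0 at an unadjusted p under 0.05). The median of the 10 was -0.66, against -0.02 for all genes tested. The differences were modest: tested against a 1.5-fold change by limma's treat, 0 of the 10 passed, against 2076 of all 15092 genes. At an unadjusted p under 0.05 in that test, only sma-6 of the 10 passed.

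The values lay below 0 on all 3 arrays for 8 of the 10 genes, against 35.4% of all genes tested. In all, 25 of the 30 single values were below 0, and the 5 others were those of daf-1 on every array and of daf-8 on replicates 2 and 3. Of all genes tested, 51.0%, 51.6% and 52.1% lay below 0 on replicates 1 to 3. The median of the 10 genes was -0.75, -0.56 and -0.68 on replicates 1 to 3.

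**Figure D1:**
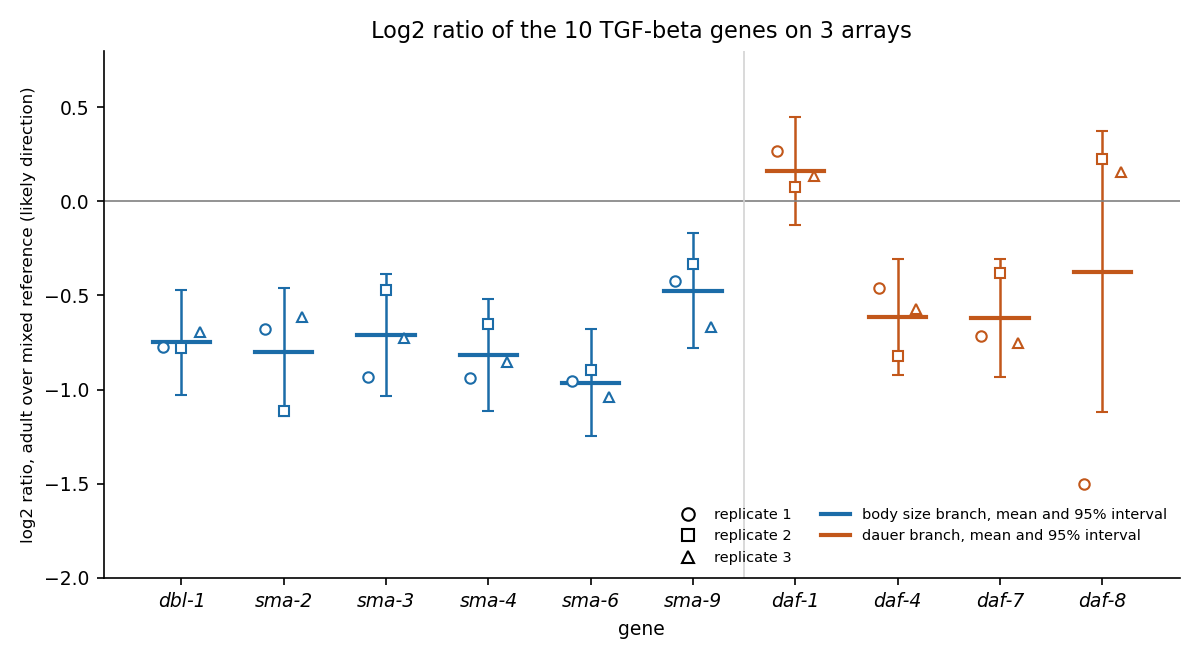
Log2 ratio of each of the 10 TGF-beta genes (vertical axis, adult over mixed reference), with 1 point for each array and the mean with its 95% interval from limma as a bar and whiskers. All 18 points of the body size genes lie below 0, and the daf-8 point of replicate 1, at -1.50, lies far from the other points of that gene.

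The ligand gene of the body size branch, dbl-1 (T25F10.2), had log2 ratios of -0.78, -0.78 and -0.70 on replicates 1 to 3. The arrays lay closer together than for nearly all genes, since the SD of dbl-1 stood at the 3.71 percentile of the SDs of all genes tested. Its mean was -0.75 ± 0.05 (SD, n = 3), a 1.68-fold lower level in adults (limma adjusted p = 0.00187).

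The type I receptor gene sma-6 (C32D5.2) had the lowest mean of the 10, with -0.95, -0.89 and -1.04 on replicates 1 to 3. The mean of -0.96 ± 0.07 was a 1.95-fold lower level (adjusted p = 0.000647) and stood at the 9.57 percentile of all genes tested. The type II receptor gene daf-4 (C05D2.1), whose product both branches use, had -0.46, -0.82 and -0.57, with a mean of -0.62 ± 0.18 (adjusted p = 0.007). Both receptor genes of the body size branch were lower on every array, and sma-6 minus daf-4 was -0.50, -0.07 and -0.47 on replicates 1 to 3.

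The receptor Smad genes sma-2 and sma-3 and the co-Smad gene sma-4 encode the proteins that carry the DBL-1 signal to the nucleus. The sma-4 gene (R12B2.1) had -0.94, -0.65 and -0.86 on replicates 1 to 3, a mean of -0.82 ± 0.15 (adjusted p = 0.00168). The sma-3 gene (R13F6.9) had -0.93, -0.47 and -0.73, a mean of -0.71 ± 0.23 (adjusted p = 0.00457). Replicate 2 was the least negative of the arrays for both genes.

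The 2 probes of sma-2 (ZK370.2) differed from each other on replicate 3. One probe read -0.75, -1.06 and -0.003 on replicates 1 to 3, and the other read -0.60, -1.16 and -1.22. They lay 0.15 and 0.10 apart on replicates 1 and 2 but 1.22 apart on replicate 3. Averaged over probes, sma-2 had a mean of -0.80 ± 0.27 (adjusted p = 0.00327). Tested singly, the probes had means of -0.61 and -0.995, with adjusted p values of 0.0442 and 0.00176 by limma over all named probes.

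The sma-9 gene (T05A10.1) encodes a zinc finger protein related to Drosophila Schnurri, which acts with the Smads in the nucleus. It had the smallest difference of the body size genes, with -0.42, -0.33 and -0.67 on replicates 1 to 3 and a mean of -0.47 ± 0.17 (adjusted p = 0.0205). Without replicate 3 the mean was -0.38 and the call was lost (adjusted p = 0.205, limma).

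The dauer ligand gene daf-7 (B0412.2) had -0.72, -0.38 and -0.75 on replicates 1 to 3. It was lower on every array, and the mean of -0.62 ± 0.20 was a 1.53-fold lower level (adjusted p = 0.00757). Without replicate 3 the mean was -0.55 and the call was lost (adjusted p = 0.0651, limma). The daf-1 gene (F29C4.1) encodes the type I receptor for this ligand and was the only member above 0 on all arrays, with 0.27, 0.08 and 0.14. Its mean of 0.16 ± 0.10 did not pass (adjusted p = 0.33), and the 95% interval of the mean ran from -0.13 to 0.45. That interval lies above those of all members other than daf-8, whose interval is wide, with no test of the differences.

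The receptor Smad gene daf-8 (R05D11.1) could not be given a direction. It had -1.50 on replicate 1 but 0.23 and 0.15 on replicates 2 and 3. The mean was -0.37 ± 0.98 (adjusted p = 0.384), with a 95% interval from -1.12 to 0.37. The SD stood at the 99.5 percentile of all genes tested. Without replicate 1 the mean was 0.19 and did not pass either (adjusted p = 0.229).

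Replicate 1 departed from the other arrays along the order of the probes in the deposited table. Over 32 equal runs of consecutive rows, the median departure of replicate 1 from the mean of replicates 2 and 3 ranged from -0.38 to 0.33. The departure of the daf-8 probe was -1.69, against a median of -0.17 in its run of rows. Over all single probes the SD of this departure was 0.46. A departure at or below that of daf-8 was seen for 0.269% of all probes. The 10 other member probes departed by -0.33 to 0.59. With each run of rows centred on its own median, all 8 lower members kept their call, and daf-8 had a mean of -0.49 that did not pass (adjusted p = 0.218).

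**Figure D2:**
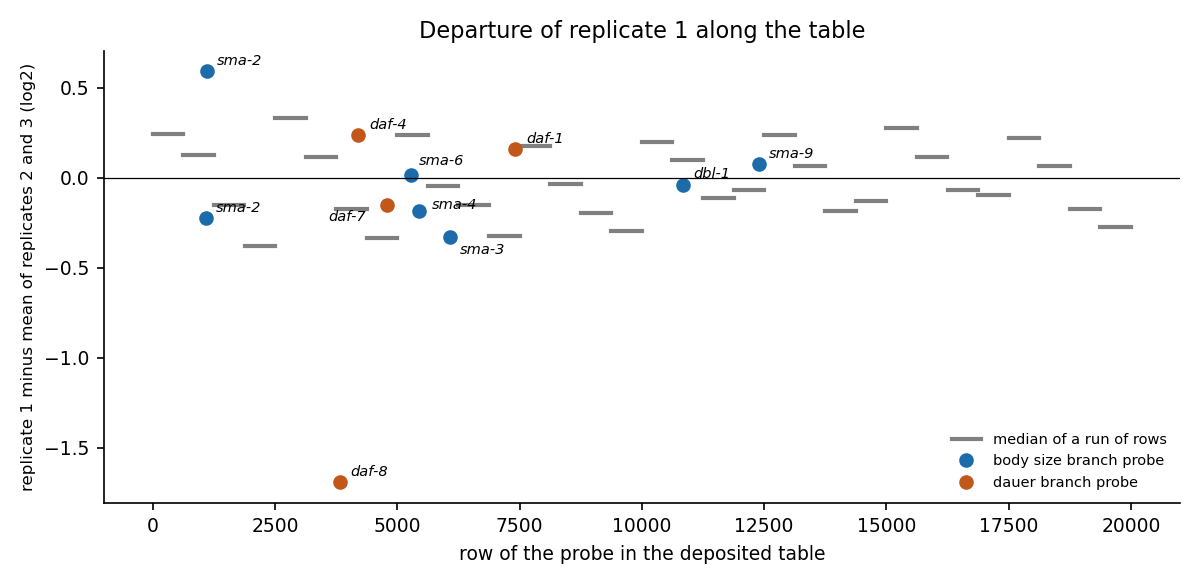
Departure of replicate 1 from the mean of replicates 2 and 3 (vertical axis, log2) against the row of the probe in the deposited table, with grey bars for the medians of 32 runs of rows and points for the 11 member probes. The run medians cycle between -0.38 and 0.33, and the daf-8 probe, at -1.69, lies far outside that range.

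With the branches as listed, the body size branch lay below the dauer branch on every array. The mean log2 ratio of the 6 body size genes was -0.78, -0.71 and -0.77 on replicates 1 to 3, and that of the 4 dauer genes was -0.60, -0.22 and -0.26. The difference, body size minus dauer, was -0.18, -0.48 and -0.51, with a mean of -0.39 ± 0.18 (SD, n = 3 arrays). This is a description with no test, as the genes of a branch are not replicates. It also rests on which dauer genes were listed. Of dauer branch genes outside the 10, daf-14 stood at -1.38, daf-3 at -0.04 and daf-5 at -0.14. The body size genes lay close together, with an SD between gene means of 0.16, while the dauer genes spread more widely, with an SD of 0.37.

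The branches overlapped gene by gene. The means of daf-4 and daf-7, both -0.62, lay between those of sma-3 and sma-9. In the order of the 10 means (sma-6, sma-4, sma-2, dbl-1, sma-3, daf-7, daf-4, sma-9, daf-8 and daf-1, from the lowest), each of the 9 gaps between neighbours was smaller than the larger SD of the pair. Neighbours in a ranking lie close by construction, so the gaps cannot show how far the branches separate. The gap of 0.53 between daf-8 and daf-1 was set against the wide SD of daf-8, 0.98. In 2 alternatives chosen after seeing the data, daf-1 or daf-8 was left out. Without daf-1 the difference shrank to -0.22 ± 0.28 and turned to 0.11 on replicate 1. Without daf-8 its mean stayed at -0.39 but the arrays lay closer together (SD 0.08), with -0.48, -0.33 and -0.37.

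**Figure D3:**
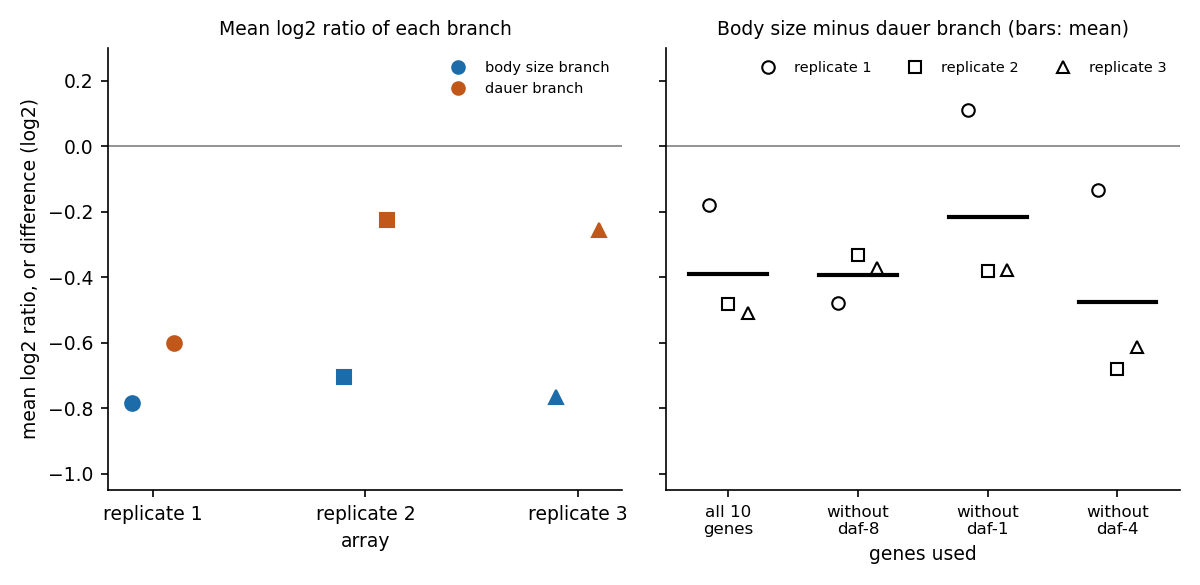
Left, mean log2 ratio of the body size and dauer branches on each array. Right, the difference between them (body size minus dauer, log2) with all 10 genes and without daf-8, daf-1 or daf-4, with points for arrays and bars for means; the 3 points without daf-8 lie between -0.48 and -0.33, and 1 point without daf-1 lies above 0.

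Genes of like role were also set side by side, as differences between log2 ratios and not between levels. For the ligands, dbl-1 minus daf-7 was -0.06, -0.39 and 0.06 on replicates 1 to 3, so the sign differed between arrays. For the type I receptors, sma-6 minus daf-1 was -1.22, -0.97 and -1.18, a mean of -1.12 ± 0.13. This was the widest of the contrasts between the branches among the roles compared. For the receptor Smads, the mean of sma-2 and sma-3 minus daf-8 was 0.70, -1.02 and -0.82, again with no single sign. Within the dauer receptors, daf-1 minus daf-4 was 0.73, 0.90 and 0.71.

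The dauer branch also includes genes outside the 10, which were taken from a list of 24 further TGF-beta genes, 19 of them measured. Of the 19, limma called 8 lower and 2 higher and made no call for 9. This is 42.1% lower against 23.5% of all genes tested, and 10.5% higher against 20.9%. The median was -0.43. Tested against a 1.5-fold change, 3 of the 19 passed, 2 lower and 1 higher. Of all 15092 genes, 2076 passed that test, 1164 lower and 912 higher.

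The other receptor Smad of the dauer branch, daf-14, had -1.37, -1.31 and -1.47 on replicates 1 to 3. It was the lowest gene of this list, at -1.38 ± 0.08, a 2.61-fold lower level (adjusted p = 0.000159), and the mean of sma-2 and sma-3 minus daf-14 was 0.57, 0.52 and 0.80 on the arrays. The co-Smad gene daf-3 and the Ski/Sno-related gene daf-5 encode nuclear proteins that promote dauer entry when the DAF-7 signal is absent. Neither passed: daf-3 had 0.13, -0.14 and -0.12, and daf-5 had 0.06, -0.32 and -0.17. For the co-Smads, sma-4 minus daf-3 was -1.07, -0.51 and -0.74.

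Other ligands of the family were lower as well. The unc-129 gene, whose product guides motor axons, stood at -1.29 ± 0.24 (adjusted p = 0.000335). The tig-2 gene stood at -0.94 ± 0.32 (adjusted p = 0.00208). With dbl-1 and daf-7, all 4 ligand genes listed here that had a value were lower, against 23.5% of all genes tested. The ligand gene tig-3 was not measured, and the ligands were not a list fixed beforehand. The Smad-like gene tag-68 stood at -1.08 ± 0.55 (adjusted p = 0.00416), with -1.66, -0.57 and -0.99 on the arrays.

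Modifiers of DBL-1 signalling were found on either side. Lower were sma-10, a membrane protein that promotes the signal, at -0.86 ± 0.50, and adt-2, a secreted metalloprotease that affects body size, at -0.61 ± 0.21. Also lower were the kinase gene kin-29 at -0.71 ± 0.05 and the tetraspanin gene tsp-14 at -0.49 ± 0.23. The ADAM protease gene sup-17 was higher, at 1.09 ± 0.09 (adjusted p = 0.000397), with values between 1.01 and 1.19 on the arrays. The other higher gene was bra-2, related to a vertebrate BMP receptor-associated protein, at 0.55 ± 0.10.

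The remaining genes of the list did not pass. The glypican gene lon-2, which restrains DBL-1 signalling, stood at 0.29 ± 0.15, and lon-1, which DBL-1 signalling represses, stood at 0.11 ± 0.13. The Runx factor gene rnt-1 stood at -0.43 ± 0.35, mab-21 at -0.26 ± 0.11, the receptor kinase gene scd-2 at -0.43 ± 0.30 and hen-1 at -0.33 ± 0.13. The bra-1 gene had -1.51, -0.10 and -0.09 on replicates 1 to 3, so that, as for daf-8, replicate 1 alone was far from 0.

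Targets and effectors of DBL-1 were called at shares near those of all genes tested. Among 11 measured genes, 3 were higher in adults (27.3%, against 20.9% of all genes tested) and 2 were lower (18.2%, against 23.5%). The test made no call for the other 6. The median was -0.10. Without replicate 2, 1 was higher and 3 were lower. The collagen gene col-142 stood at 2.37 ± 0.35 and the collagen gene rol-6 at -3.63 ± 0.21. The 3 others that passed, named after their values were seen, were col-141 at 0.57, the lysozyme gene lys-8 at 0.52 and the antimicrobial peptide gene cnc-2 at -1.90. This list shares lon-1, rnt-1 and mab-21 with the list above.

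Other genes of body size and of the dauer decision were also listed. Among 11 body size genes outside the pathway, 8 were not called and 2 were lower (18.2%, against 23.5% of all genes tested). The remaining 1 was higher (9.09%, against 20.9%), and the median of the list was -0.21. Centring by runs of rows called 5 lower and 1 higher. Without replicate 2, without replicate 3 or with the values as deposited, 1 was lower. The lower ones were the calcineurin genes tax-6 at -1.14 ± 0.05 and cnb-1 at -0.45 ± 0.33, where cnb-1 was named after its value was seen, and the higher one was the cGMP-dependent kinase gene egl-4 at 0.46 ± 0.09. Among 21 dauer decision genes of other pathways, 12 were not called and 6 were lower (28.6%, against 23.5% of all genes tested). The remaining 3 were higher (14.3%, against 20.9%). The median was -0.07. Without replicate 3 only 3 were called lower, and without replicate 2 only 4. The daf-36 gene, which makes a precursor of the hormone that blocks dauer entry, was higher, at 1.05 ± 0.15.

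Neuron and epidermis markers were mostly called lower, with 72.7% of the neuron and 64.7% of the epidermis genes against 23.5% of all genes tested. Among 22 neuron genes, 6 were not called and 16 were lower, with list medians of -1.04, -0.73 and -1.06 on replicates 1 to 3 and gene means from -2.83 to 0.34. The lowest were ida-1, of dense core vesicles, at -2.83 ± 0.22 and the SNAP-25 gene ric-4 at -2.14 ± 0.36. Among 17 epidermis genes, 5 were not called, 11 were lower and 1 was higher (5.88%, against 20.9% of all genes tested). The list medians were -0.61, -0.64 and -0.84. The lowest were rol-6, also on the target list, and the moulting gene mlt-10 at -1.53 ± 0.41. The epidermis list thus holds collagen and moulting genes beside others, and its genes did not move together. Named after their values were seen, the 5 not called were lin-26, elt-1, nhr-25, ajm-1 and bli-1, with means from -0.42 to 0.49. The higher gene was nhr-23, at 0.78. The part of these markers in the lower values of the TGF-beta genes was not tested.

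Intestine genes went both ways. Among 15, 4 were not called, 6 were higher (40%, against 20.9% of all genes tested) and 5 were lower (33.3%, against 23.5%). The median was 0.27, and the extremes among the called genes were the protease gene cpr-1 at -1.54 ± 0.47 and the phosphatase gene pho-1 at 1.10 ± 0.39. In RNA of whole worms, a cell type's share of the total RNA and the RNA level within its cells cannot be told apart. The germline and oocyte markers were higher on all arrays, with list medians of 1.86, 1.58 and 1.73.

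**Figure D4:**
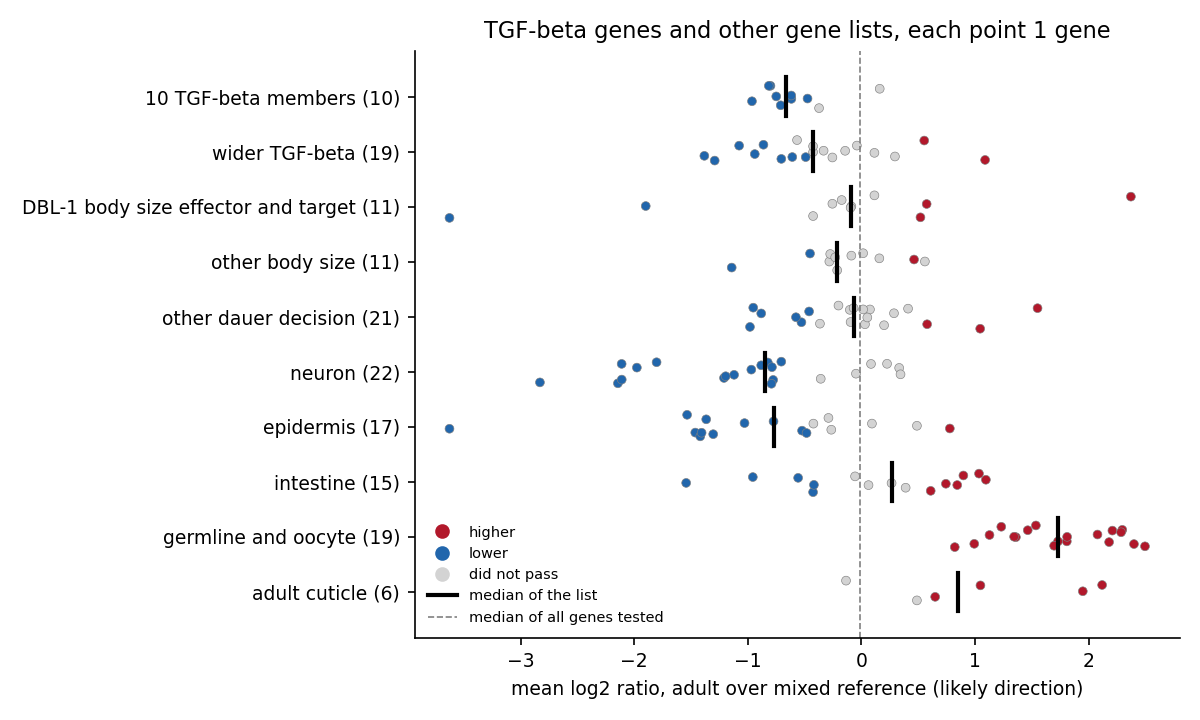
Mean log2 ratio (horizontal axis, adult over mixed reference) of the 10 TGF-beta genes and of each gene list, 1 point for each gene, coloured by its limma call, with black bars for list medians. The median of the 10 members, -0.66, lies between that of the further TGF-beta genes, -0.43, and those of the neuron and epidermis markers, -0.85 and -0.77.

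The genes with values nearest to those of the ligand genes were found by the Euclidean distance over the 3 arrays. For dbl-1 these were scd-1, tre-3 and grl-22, at distances of 0.03, 0.03 and 0.05 on the log2 scale. For daf-7 they were F13D12.3, che-7 and stdh-2, at 0.03, 0.04 and 0.05. Within a wider distance of 0.2 there were 88 genes around dbl-1 and 127 around daf-7. Between members, the nearest pair was sma-3 and sma-4, at 0.22, and the farthest was sma-6 and daf-1, at 1.96.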

How the data were processed

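The authors deposited a table of log2 ratios with 20000 probes and a column for each of the 3 arrays. That these deposited values are log2 was read from the values: all those within 2 of 0 were log2 of ratios with 3 decimals (100%, to within 0.005 thousandths), against 0.974% as natural logs and 1.08% as log10. For the dyes, direction, scanner, background treatment and the authors' centring, the sources used here give no statement. No spot intensities were used, so no probe could be called above background, and precision rests on the number of arrays. Values were present for 19899, 19807 and 19844 probes on replicates 1 to 3. Genes were named through GEO's platform annotation, with 15655 probes of 1 symbol, 198 of several and 4147 of none, and sequence names came from the WBcel235 RefSeq gene table, which held 15569 of the single-symbol probes.

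Arrays were centred on their medians, probes of a gene averaged, and each gene's mean tested against 0 with limma 3.58.1 (lmFit, eBayes) in R 4.3.3, Benjamini-Hochberg adjusted over 15092 genes, at a threshold of 0.05. The spread of the reference RNA does not enter this test. In simulated data of 15092 genes, only a small part of the genes was shifted. Of those shifted by 1 (log2), 98% were recovered, and of those shifted by 0.5, 26%. There 24 of 148 calls were false. The real data gave 6698 calls, so these shares need not hold for them. The members and gene lists were chosen with earlier results of these data known. Named were all members, all measured genes of the further TGF-beta list, the 2 genes of largest absolute mean among those past the threshold with 1 sign in each other list, and the 3 nearest genes to each ligand gene. One gene that this rule names is not reported here. Genes not measured were crm-1, tig-3, drag-1, tsp-12, tsp-21, bro-1, chb-3, daf-28, ins-1, daf-21, daf-25, egl-3, cha-1 and dpy-10.

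Alternatives were values as deposited, scale and quantile normalization, centring by 32 runs of rows, a robust prior, single probes, weighted arrays, a minimum of 2 arrays with a value, a test against a 1.5-fold change (treat), other placings of daf-4, branch medians, and leaving out each replicate. Leaving out daf-1 or daf-8 and using each sma-2 probe alone were added after seeing the data.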

Additional observations from a re-analysis of the deposited data

How the results depend on the processing

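The 8 lower members kept their call and direction under 10 of 12 alternatives. Against a 1.5-fold change, 0 of the 8 passed (adjusted p between 0.0557 for sma-6 and 1; 1 at an unadjusted p under 0.05), and without replicate 3 the calls of sma-9 and daf-7 were lost, leaving 6. The uncalled daf-8 changed sign with array weights (0.37 for replicate 1), to a mean of 0.0195, and ranged from -0.67 to 0.19 with 1 replicate left out, the highest without replicate 1. The test against 1.5-fold asks for a larger effect, and called 2076 of all genes (912 higher and 1164 lower, against 6698 in all), 3 of the further TGF-beta genes, 3 of the DBL-1 targets, 1 of the other body size genes and 2 of the other dauer genes. Centring by runs of rows called 6 of the other body size genes, against 3, and the cause was not tested. Leaving out 1 replicate gave 4948 to 7102 of all genes, 6 to 8 members and 8 to 12 further TGF-beta genes. The difference between branches was negative under all alternatives tried, from -0.50 without replicate 1 to -0.22 without daf-1, and with each sma-2 probe alone it was -0.36 and -0.42. No paired analysis was possible because there is only 1 group. With 3 arrays and no spot intensities, low signal could not be told from small change.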
